A study of Mus musculus with 15 samples.

Results

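The cytosolic ribosomal protein genes were taken by name, leaving out the Rps6k kinase names and names that contain -ps. Taken were gene names that begin with Rpl or Rps and a digit, with Rplp0, Rplp1, Rplp2 and Rpsa. Of 84 such names, 82 reached an average of 1 RPKM (reads scaled to transcript length in kilobases and to the mapped reads) over the 5 groups and were kept, among 17481 genes kept of 24831 gene names in all. Here 50 of the 82 carried large subunit names and 32 small subunit names. The label fitted 76 of them as canonical subunits. Rpl10l, Rpl22l1, Rpl36al, Rpl7l1 and Rps27l are paralogs of canonical subunits, and Rps19bp1 encodes a protein that binds Rps19 and is not a ribosomal protein.

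Total RNA was sequenced from hypothalami of outbred CD-1 mice aged 15 days after birth, in a series titled for effects of thyroid hormone in the F2 generation. The 15 samples formed the groups PGM, PGF, HM, HF and Control, with 3 biological replicates each, and the labels used here do not expand these codes or name the treatment, dose or parent behind them. The deposited table gave the authors' mean RPKM per group and transcript, and no values per sample were used here. Each value below is therefore 1 group mean with no error, no difference has a replicate check, no test was possible, and the read depth is unknown.

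Ribosomal proteins clothe the ribosomal RNA of the large and small subunits, and a ribosome needs about equal numbers of nearly all of them, so their genes are usually expressed in proportion. Most of their mRNAs begin with a 5′ terminal oligopyrimidine (TOP) tract, through which mTOR signalling and the protein LARP1 set how strongly they are translated. A change of translation alone would not alter the mRNA levels measured here. Neurons keep many ribosomes, and in bulk tissue fewer cells of a type and less RNA per cell cannot be told apart.

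The members were among the most abundant transcripts of the tissue. Their median level was 515.5 RPKM against 18.8 RPKM over all genes kept, and 74 of the 82 reached 200 RPKM. The top of the range was Rpl41, the smallest ribosomal protein, with 1623 RPKM in PGM, 1646 RPKM in PGF, 1495 RPKM in HM, 1677 RPKM in HF and 1580 RPKM in Control. Next came Rplp1, an acidic protein of the P stalk, with 1560 RPKM in PGM, 1551 RPKM in PGF, 1442 RPKM in HM, 1608 RPKM in HF and 1525 RPKM in Control. Both were highest in HF and lowest in HM. Rps2, Rpl13a, Rps21, Rpl9, Rpl23a and Rpl13 completed the 8 members with the highest means. At the other end stood Rpl22, Rps15a, Rps27l, Rpl7l1, Rps19bp1 and Rpl10l, each under 100 RPKM, and the lowest kept member was Rpl10l with a mean of 3.8 RPKM. The names that missed the filter were Rpl39l and Rpl3l, with means of 0.244 and 0.237 RPKM.

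**Figure D1:**
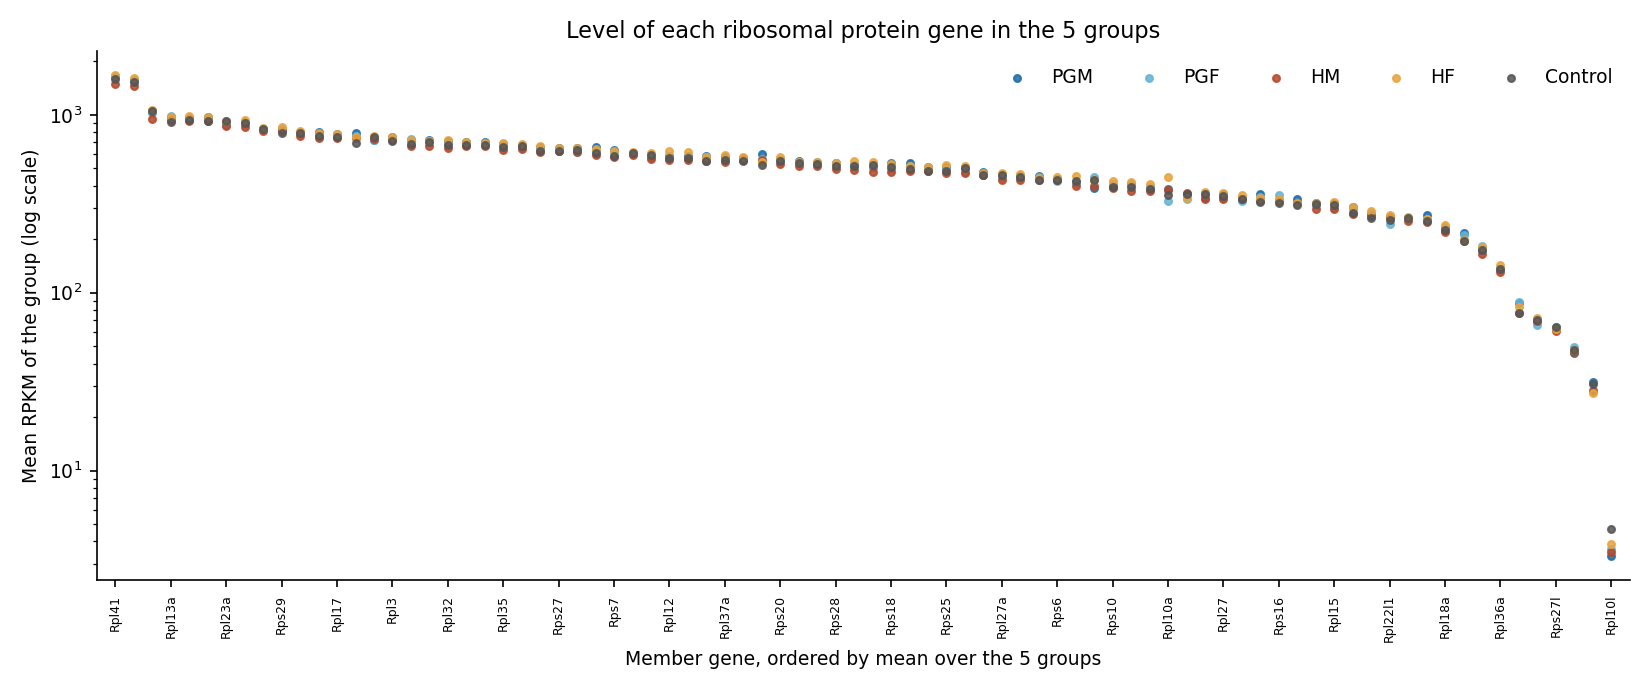
Mean RPKM of each of the 82 members (vertical axis, log scale) in PGM, PGF, HM, HF and Control, 1 point per group, with genes ordered by their mean over the 5 groups and 1 name in 3 printed. The 5 points of a gene nearly coincide for most members, from Rpl41 at 1604 RPKM down to Rpl10l at 3.8 RPKM.

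Most members kept nearly the same level in every group. The ratio of the highest to the lowest group mean had a median of 1.09 over the members and of 1.18 over all genes kept. It was smallest for Rpl4, a protein that lines the exit tunnel, at 1.04, with 607 RPKM in PGM, 605 RPKM in PGF, 598 RPKM in HM, 621 RPKM in HF and 609.98 RPKM in Control. The ratio was largest for Rpl10l at 1.42 and for Rpl10a at 1.36. No member was 1.5-fold apart in any of 6 comparisons, which set each of the other 4 groups against Control, HM against HF, and PGM against PGF, while 7.67% of all genes were in 1 or more of them.

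Within that narrow range most members leaned high in HF and low in HM. HF was the highest of the 5 groups for 48 of the 82 members (24.6% of all genes kept), PGM for 22 (29% of all genes), PGF for 8 (13.3% of all genes), HM for 1 (7.57% of all genes) and Control for 3 (25% of all genes). HM was the lowest group for 56 members (21.9% of all genes), PGF for 10 (27.7%), PGM for 3 (17.8%), HF for 1 (8.76%) and Control for 12 (23.3%). The 82 values summed to 44070 RPKM in PGM, 43304 RPKM in PGF, 41684 RPKM in HM, 44689 RPKM in HF and 42742 RPKM in Control. The ratio of the sum to that of Control was 1.03 for PGM, 1.01 for PGF, 0.975 for HM and 1.05 for HF. The single member highest in HM was Rps27a, and the single member lowest in HF was Rps19bp1.

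**Figure D2:**
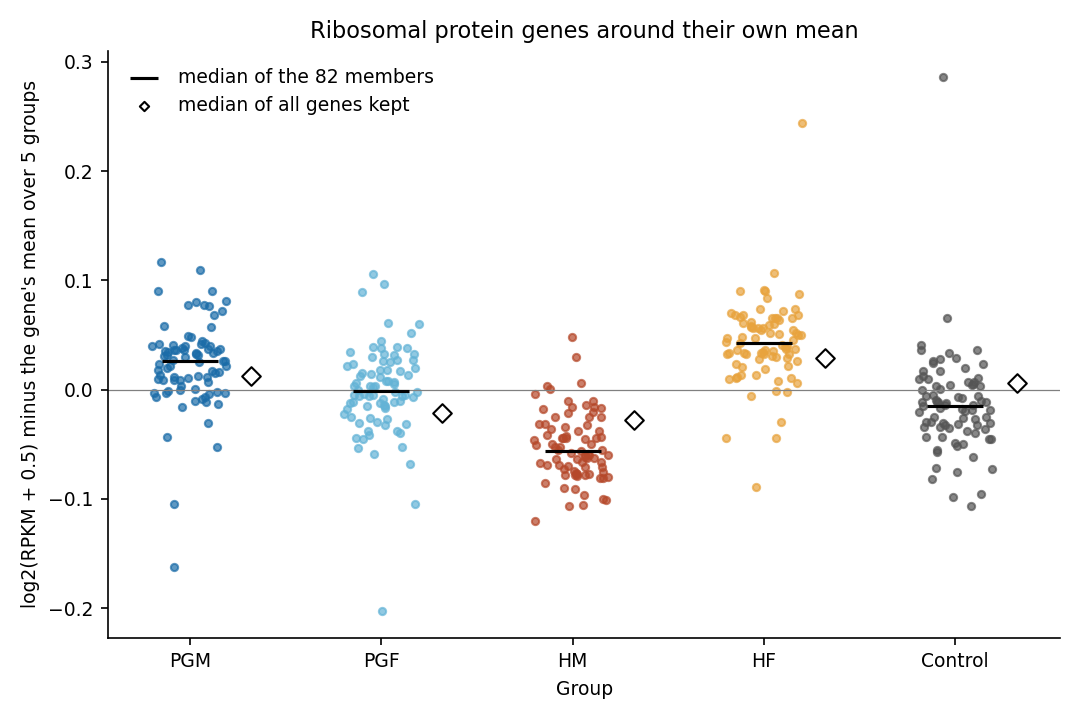
log2(RPKM + 0.5) of each member minus that gene's own mean over the 5 groups (vertical axis), in PGM, PGF, HM, HF and Control, 1 point per gene, with black lines at the members' medians and open diamonds at the medians of all genes kept. The members' medians were 0.026 in PGM, -0.0014 in PGF, -0.056 in HM, 0.043 in HF and -0.015 in Control, and the isolated high points are Rpl10a in HF and Rpl10l in Control.

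The direct comparison of HM with HF held the most uniform difference. All differences below are between values of log2(RPKM + 0.5). Of the 82 members, 79 were lower in HM than in HF, against 68.6% of all genes kept. The members' median difference, HM minus HF, was -0.10, and the median over all genes was -0.05. The summed level differed by -6.72% (41684 RPKM in HM and 44689 RPKM in HF). Large subunit members stood at a median of -0.11 and 49 of 50 were lower. Small subunit members stood at -0.09 and 30 of 32 were lower. The 33 members with several listed transcripts had differences of 1 sign in all of their transcripts. Transcripts of a gene can share reads, so this is not a separate check. A threshold of 0.32 on this log2 scale, which is the smaller of the folds counted, was passed by 0 members, while 5.59% of all genes were lower and 1.69% higher in HM by that much.

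Other genes of like length and abundance were lower in HM too, by less. Among 292 other genes in the shortest of 5 length classes with at least 200 RPKM, 209 were lower in HM than in HF, with a median of -0.04. Of the 777 other genes of at least 200 RPKM of any length, 516 were lower, with a median of -0.04. With the all-gene median subtracted the members' median stood at -0.04.

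**Figure D3:**
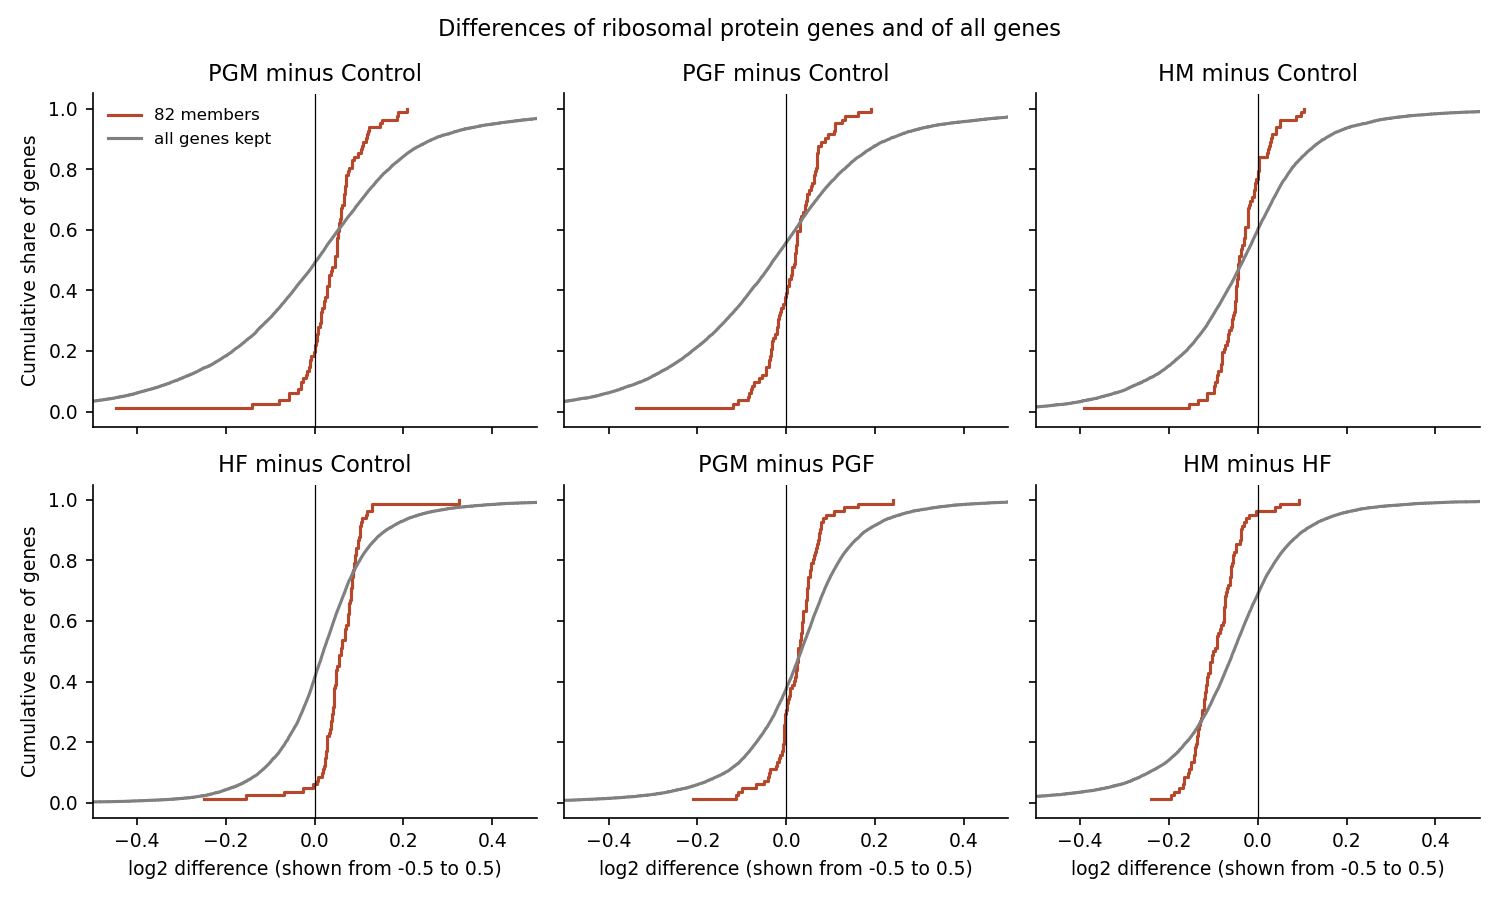
Cumulative share of genes (vertical axis) at or below each log2 difference (horizontal axis, shown from -0.5 to 0.5), in 6 panels for PGM, PGF, HM and HF minus Control, PGM minus PGF and HM minus HF, for the 82 members and for all genes kept. The members' curves are steeper than those of all genes in every panel, and in the HM minus HF panel 79 of 82 members lie left of 0.

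The largest HM to HF difference belonged to Rpl10a, a protein of the L1 stalk that handles the spent tRNA as it leaves the ribosome. Next were Rplp0, the base of the P stalk, at -0.20, then Rps12, a protein of the small subunit beak, at -0.19. Rps2, which lies at the entry of the mRNA channel, was at -0.18. The exceptions, with higher means in HM, were Rps27a at 0.09, Rplp2 at 0.05 and Rps19bp1 at 0.04.

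Against Control, HF had higher values for 77 of the 82 members (58.6% of all genes). Their median difference was 0.06, and that of all genes 0.02. The members lower in HF than in Control were Rpl10l, Rps19bp1, Rps27a, Rps27l and Rpl23a. In HM, 65 members were lower than in Control (59.9% of all genes), with a median of -0.04 against -0.03 over all genes. PGM was higher than Control for 66 members (50.9% of all genes), with a median of 0.05 against 0.00 over all genes. PGF was higher for 51 members (44.2% of all genes), with a median of 0.02 against -0.03 over all genes. PGM was higher than PGF for 57 members (62.2% of all genes), with a median of 0.03, equal to that of all genes at this precision. Of the 292 other genes of the shortest length class with at least 200 RPKM, 82.2% were higher in HF than in Control. Their median there was 0.06, equal to that of the members at this precision. The same 292 genes had a median of 0.12 for PGM minus Control and of 0.09 for PGF minus Control, above the members' medians. For HM minus Control their median was 0.02, where the members had -0.04. The comparisons with Control share its samples, so their counts are not independent of each other.

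Differences of at least 0.32 against Control came from a pair of members. In PGM 1 member, Rpl10l, was lower by that much (9.72% of all genes) and 0 were higher (7.38%). In PGF it was again Rpl10l that was lower (10.1% of all genes), with 0 members higher (5.96%). In HM Rpl10l was lower (6.09% of all genes) and 0 members were higher (2.72%). In HF 1 member, Rpl10a, was higher (2.52% of all genes) and 0 were lower (1.15%). PGM against PGF gave 0 members, where 2.85% of all genes were higher and 2.37% lower.

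Transcript length moved with the differences against Control. The members are short, with a median length of 772.5 nucleotides against 2704.5 over all genes with a length, and 75 of the 82 fell in the shortest of 5 length classes of equal size. In PGM minus Control the median over all genes was 0.08 in that class and -0.09 in the longest. In PGF minus Control it was 0.05 in the shortest and -0.12 in the longest class, in HM minus Control 0.00 and -0.08, and in HF minus Control 0.06 and -0.01. With the median of the length class subtracted, the members' median turned to -0.03 in PGM minus Control and to -0.02 in PGF minus Control, and 17 and 28 members were then higher. In HF minus Control it came to 0.0036 with 43 members higher. HM minus HF showed no such gradient, with -0.05 in the shortest and -0.06 in the longest class, and the members' median was -0.04 after the subtraction. The part of length in these results was not tested.

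**Figure D4:**
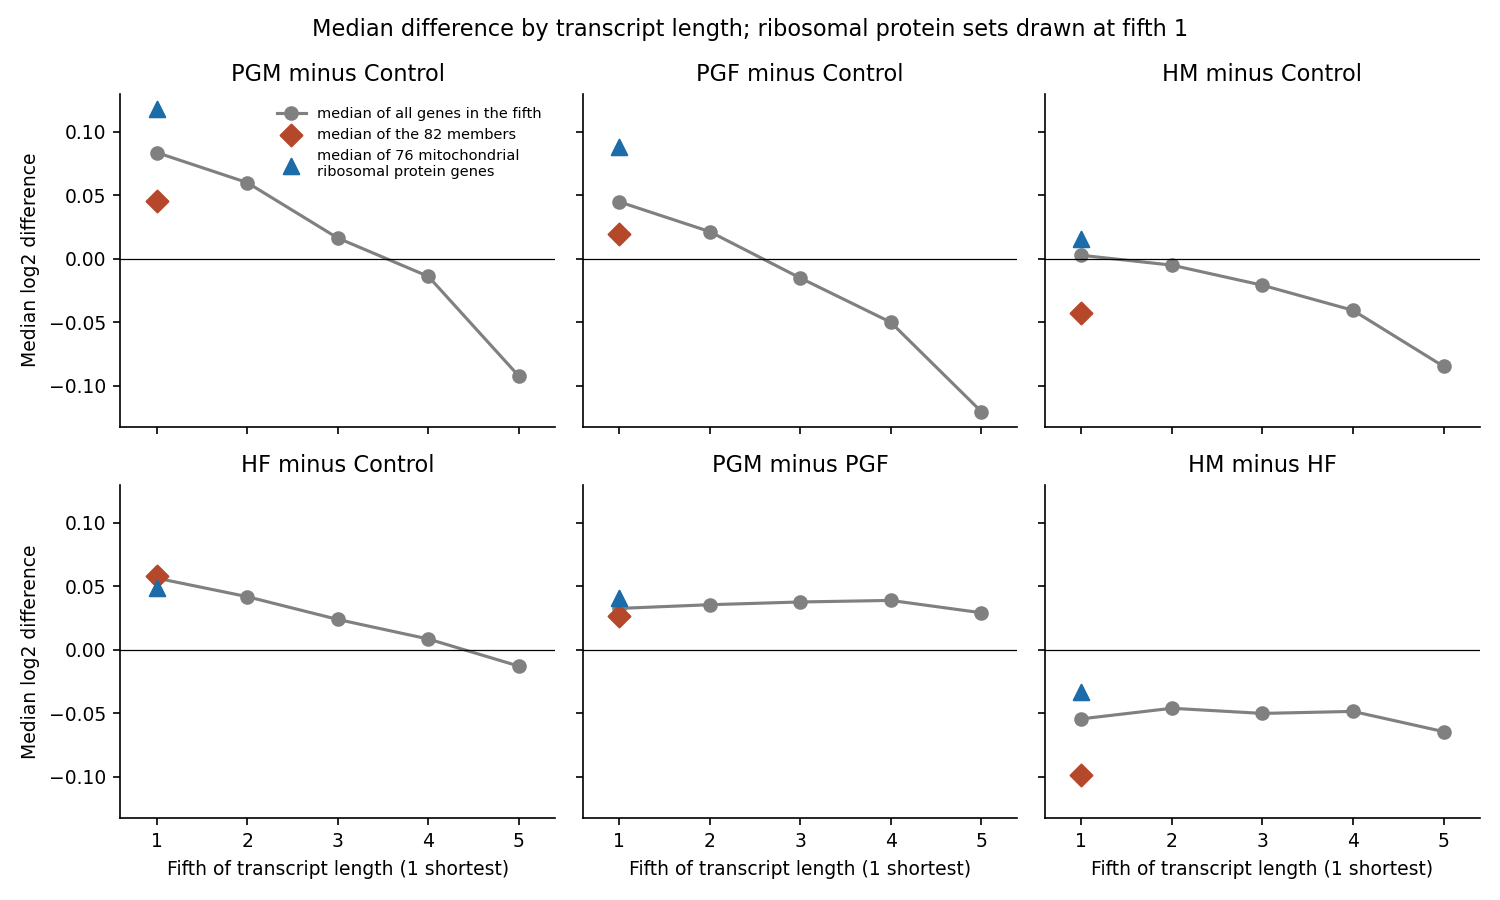
Median log2 difference of all genes (vertical axis) in 5 classes of transcript length from shortest to longest (horizontal axis), in 6 panels for PGM, PGF, HM and HF minus Control, PGM minus PGF and HM minus HF. The diamond is the median of the 82 members and the triangle that of 76 mitochondrial ribosomal protein genes, both drawn at the shortest class: in PGM minus Control the line drops from 0.08 at the shortest to -0.09 at the longest class, while in HM minus HF it stays between -0.05 and -0.06 and the members lie at -0.10.

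Promoters of 8 members named for departing from the common pattern, or for their low level in HM, are shown. Rps2 and Rplp0 were among the members lowest in HM against HF. RefSeq sequence of the build GRCm38.p6 (mm10) was found for 62 of the 82 members. Each window runs 5′ to 3′ on the gene's strand and holds 70 bases before and 30 bases after the annotated start. Capitals mark CTTTCC, a pyrimidine run, or CTTCCG or its reverse complement CGGAAG, which holds the core that ETS family factors bind.
Rpl10a, first start (chr17:28328401-28328500, plus strand): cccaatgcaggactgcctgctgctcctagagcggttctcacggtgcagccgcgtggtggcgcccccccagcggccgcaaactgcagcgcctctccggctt
Rpl10a, second start (chr17:28328495-28328594, plus strand): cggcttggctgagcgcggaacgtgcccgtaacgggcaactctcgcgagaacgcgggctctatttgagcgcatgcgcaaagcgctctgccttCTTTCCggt
Rplp2 (chr7:141447581-141447680, plus strand): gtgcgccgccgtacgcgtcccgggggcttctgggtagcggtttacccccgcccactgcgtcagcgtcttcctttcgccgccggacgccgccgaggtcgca
Rpl26 (chr11:68901496-68901595, plus strand): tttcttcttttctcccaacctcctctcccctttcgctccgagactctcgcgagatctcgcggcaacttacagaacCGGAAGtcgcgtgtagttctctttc
Rpl28 (chr7:4792895-4792994, plus strand): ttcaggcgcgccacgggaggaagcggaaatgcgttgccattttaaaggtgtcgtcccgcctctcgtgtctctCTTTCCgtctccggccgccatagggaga
Rpl10l (chr12:66284372-66284471, minus strand): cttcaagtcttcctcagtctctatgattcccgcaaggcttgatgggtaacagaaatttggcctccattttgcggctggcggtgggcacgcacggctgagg
Rps16 (chr7:28350619-28350718, plus strand): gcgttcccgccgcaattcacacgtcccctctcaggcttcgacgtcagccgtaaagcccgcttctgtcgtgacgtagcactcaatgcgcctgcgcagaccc
Rps2 (chr17:24719993-24720092, plus strand): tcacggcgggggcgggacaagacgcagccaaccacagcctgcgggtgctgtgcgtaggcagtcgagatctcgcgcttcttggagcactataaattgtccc
Rplp0 (chr5:115559397-115559496, plus strand): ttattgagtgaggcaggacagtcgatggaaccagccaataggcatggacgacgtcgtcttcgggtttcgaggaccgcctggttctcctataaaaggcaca

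The marked words differed between these windows. In Rpl28 the marked CTTTCC lies just after the annotated start, and in Rpl26 the marked CGGAAG lies there, while Rplp2, Rpl10l, Rps16, Rps2 and Rplp0 hold neither word in the window shown. Over the longer windows of 250 bases before to 50 after the start, CTTCCG on either strand was found for 43 of 62 members, or 69.4%, and for 18.8% of 27025 genes with a window. These 27025 genes, meant by all genes in this paragraph, were not limited to the genes kept or to abundant genes. A gene counted if any of its annotated starts matched. CTTTCC on either strand was found for 34 members, or 54.8%, and for 29.3% of all genes. TATAAA on either strand was found for 7 members, or 11.3%, and for 15.7% of all genes. A start at C followed by 4 pyrimidines, the form of a TOP tract, was annotated for 13 members, or 21.0%, and for 3.01% of all genes, and annotated starts may differ from those used in this tissue. CTTTCC and CTTCCG can overlap by their shared letters, and a match is a description of the letters, not a bound site.

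Rpl10a lies on chromosome 17 from 28328471 to 28331033 (GRCm38.p6). Its level was 385 RPKM in PGM, 326 RPKM in PGF, 376 RPKM in HM, 444 RPKM in HF and 354 RPKM in Control. HF stood apart at the top and PGF at the bottom. The difference was 0.33 for HF minus Control, -0.24 for HM minus HF and 0.24 for PGM minus PGF, the largest of any member in each of these 3 comparisons. Its pair of listed transcripts gave 0.33 and 0.32 for HF minus Control. Fance, a neighbouring gene on chromosome 17 named after the Rpl10a value was seen, was at 0.20 in HF minus Control, with 15.1 RPKM in HF and 13.1 RPKM in Control. Tead3 and Ppard, also close to Rpl10a, were at 0.08 and -0.08 in HF minus Control. Both levels were low, with Tead3 at 2.13 RPKM in HF and 1.995 RPKM in Control. Ppard had 5.575 RPKM in HF and 5.905 RPKM in Control.

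The P stalk recruits and activates elongation factors, with Rplp0 as its base, the acidic Rplp1 and Rplp2 as its arms and Rpl12 beside it. Rplp0 had 509 RPKM in PGM, 509.95 RPKM in PGF, 475 RPKM in HM, 545 RPKM in HF and 522 RPKM in Control. It was lowest in HM, at -0.20 against HF and -0.13 against Control. Rpl12 had 588 RPKM in PGM, 586 RPKM in PGF, 554 RPKM in HM, 622 RPKM in HF and 574 RPKM in Control, with HM lowest and HF highest again. Rplp2 had 600.3 RPKM in PGM, 567 RPKM in PGF, 559 RPKM in HM, 539.5 RPKM in HF and 519.5 RPKM in Control. It was the stalk protein with another order, lowest in Control and above Control by 0.21 in PGM and 0.13 in PGF, and by 0.10 in HM and 0.05 in HF.

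The 5S particle, in which Rpl5 and Rpl11 bind 5S ribosomal RNA and which can also bind the p53 regulator Mdm2, followed the common order between HM and HF. Rpl5 had 273 RPKM in PGM, 259 RPKM in PGF, 249 RPKM in HM, 259 RPKM in HF and 252 RPKM in Control. Rpl11 had 389 RPKM in PGM, 390.2 RPKM in PGF, 373 RPKM in HM, 407 RPKM in HF and 385 RPKM in Control. HM was the lowest group for both, while the highest was PGM for Rpl5 and HF for Rpl11. The Rpl11 value is the median of transcripts listed at 54.9 and 715 RPKM in Control, so its level depends on that choice, and its sign in HM minus HF does not.

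Of 9 proteins that line the exit tunnel or its rim, through which the new chain leaves, 9 were lower in HM than in HF (68.6% of all genes), with a median of -0.09 against -0.05 over all genes. Of the 82 members, 79 were lower in that comparison, with a median of -0.10. Rpl26, on the rim, had 792 RPKM in PGM, 763 RPKM in PGF, 743 RPKM in HM, 754 RPKM in HF and 695 RPKM in Control, so Control was the lowest group. It lay above Control by 0.19 in PGM and 0.13 in PGF, and by 0.10 in HM and 0.12 in HF. Rpl22 had 87.9 RPKM in PGM, 88.3 RPKM in PGF, 77.0 RPKM in HM, 83.0 RPKM in HF and 77.2 RPKM in Control. PGM and PGF were its high groups, at 0.19 each above Control, while HM lay at -0.01. Rpl31 was lower than Control in PGM at -0.08 and in HM at -0.10. Rpl23a, a docking site for the signal recognition particle, was highest in Control at 926 RPKM, nearly level with HF at 924 RPKM.

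On the small subunit, Rps2 had 1052 RPKM in PGM, 1026 RPKM in PGF, 945 RPKM in HM, 1069 RPKM in HF and 1052 RPKM in Control. HM stood below the other 4 groups, at -0.15 against Control. Rps3, beside Rps2 at the mRNA entry, had 275 RPKM in PGM, 282 RPKM in PGF, 269 RPKM in HM, 289 RPKM in HF and 264 RPKM in Control. It was highest in HF, at 0.13 above Control. At the mRNA exit Rpsa, Rps14, Rps26 and Rps28 were all lower in HM than in HF, from -0.07 to -0.15. There the median of all genes was -0.05 and that of the 82 members -0.10. Rps16, whose tail reaches the tRNA in the P site, had 332 RPKM in PGM, 356 RPKM in PGF, 329.6 RPKM in HM, 338 RPKM in HF and 318 RPKM in Control, and was highest in PGF at 0.16 above Control.

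Rpl28, a large subunit protein, had the lowest PGM minus PGF difference of the members. It had 388 RPKM in PGM, 449 RPKM in PGF, 395 RPKM in HM, 429.5 RPKM in HF and 428 RPKM in Control. PGM and HM were its low groups, at -0.14 and -0.11 against Control, and PGM minus PGF was -0.21. Rps18 lay the other way in that comparison, at 0.11.

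**Figure D5:**
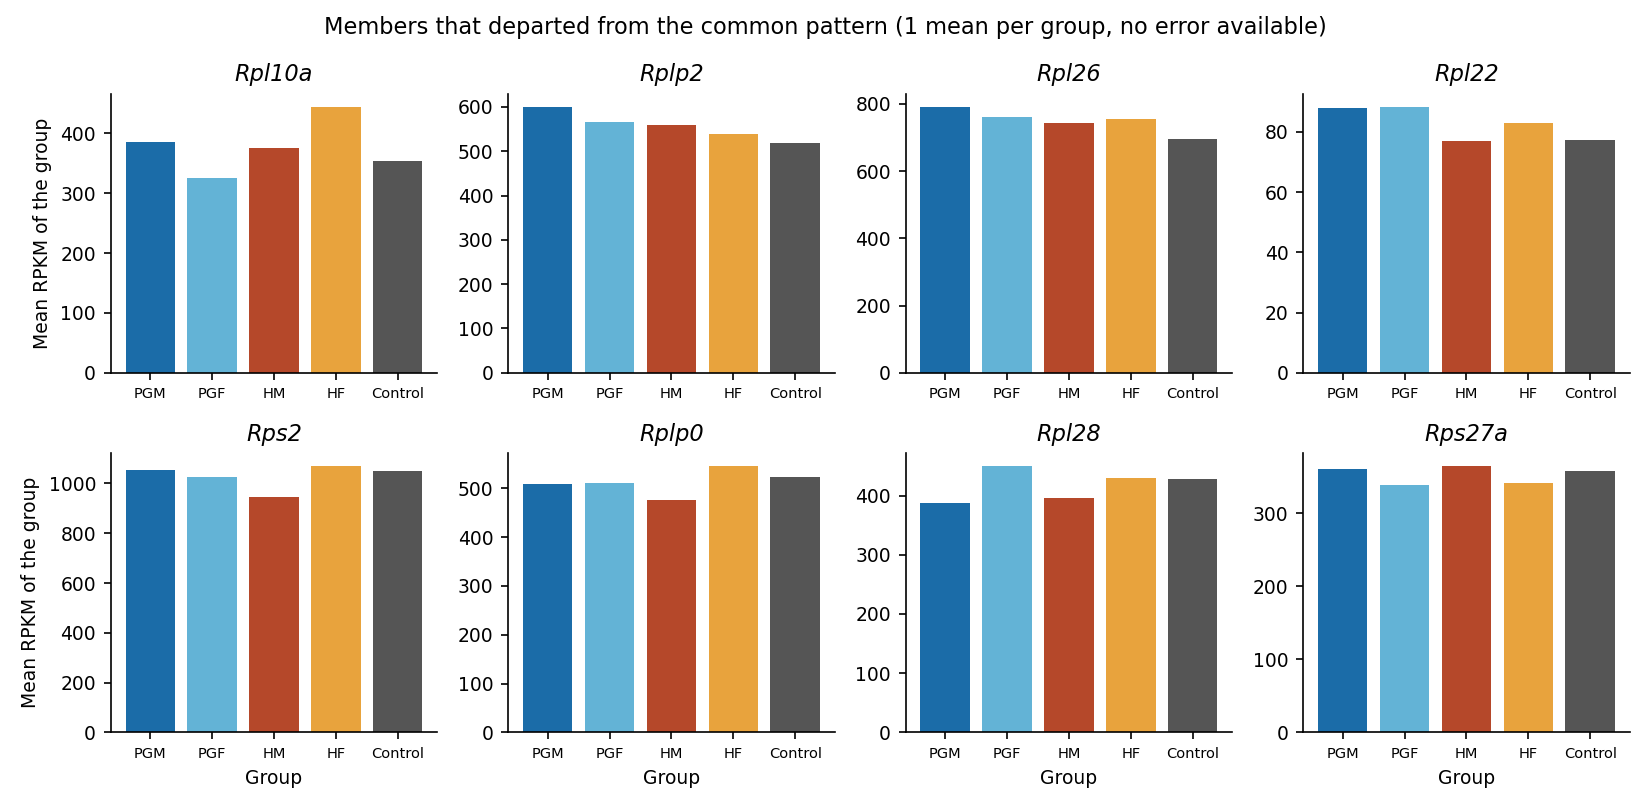
Mean RPKM (vertical axes, from 0) of Rpl10a, Rplp2, Rpl26, Rpl22, Rps2, Rplp0, Rpl28 and Rps27a in PGM, PGF, HM, HF and Control, 1 bar per group mean with no error available. Rpl10a is highest in HF at 444 RPKM, Rplp2 and Rpl26 are lowest in Control at 519.5 and 695 RPKM, and Rps2 and Rplp0 are lowest in HM at 945 and 475 RPKM.

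In humans, loss of 1 copy of any of several ribosomal protein genes causes Diamond-Blackfan anemia. Of 17 such genes measured, 17 were lower in HM than in HF (68.6% of all genes), with a median of -0.11. The same 17 were higher in HF than in Control (58.6% of all genes), with a median of 0.07. The 82 members gave 79 of 82 and 77 of 82 for those comparisons, so these counts are near those of the whole set. The 4 X-linked members, Rpl10, Rpl36a, Rpl39 and Rps4x, had a median of -0.08 in HM minus HF (-0.05 over all genes). Of these 4, 4 were lower, against 68.6% of all genes and 79 of the 82 members.

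The paralogs and Rps19bp1 did not share 1 order. Rpl10l, an autosomal copy of the X-linked Rpl10 that is needed in the mouse testis, had 3.32 RPKM in PGM, 3.62 RPKM in PGF, 3.47 RPKM in HM, 3.88 RPKM in HF and 4.71 RPKM in Control. Control was its highest group, with differences of -0.45 in PGM and -0.34 in PGF, and of -0.39 in HM and -0.25 in HF. Its level is far under that of Rpl10, which had 719.8 RPKM in PGM, 719 RPKM in PGF, 727 RPKM in HM, 761 RPKM in HF and 749.6 RPKM in Control, and the sources used here do not say how reads shared by such copies were counted. Rpl22l1, the paralog that Rpl22 holds down in mouse cells, had 266 RPKM in PGM, 243 RPKM in PGF, 267 RPKM in HM, 274 RPKM in HF and 257 RPKM in Control, with PGF lowest. Rpl36al had 216 RPKM in PGM, 210.1 RPKM in PGF, 195 RPKM in HM, 199 RPKM in HF and 195 RPKM in Control. Rps19bp1 had 31.7 RPKM in PGM, 28.3 RPKM in PGF, 28.2 RPKM in HM, 27.4 RPKM in HF and 30.6 RPKM in Control, and HF was its lowest group.

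Some ribosomal proteins are made as fusions to ubiquitin or a ubiquitin-like protein. Rps27a, the member of this kind, had 360.0 RPKM in PGM, 338 RPKM in PGF, 364 RPKM in HM, 342 RPKM in HF and 358 RPKM in Control. PGF and HF were its low groups. Fau, the fusion that carries eS30, lay between 639.6 RPKM in PGF and 587 RPKM in Control. Reads of a ubiquitin part can be shared among genes that carry one, so the Rps27a value is uncertain.

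Lists of related genes were compared with all genes and with the members. Of 76 mitochondrial ribosomal protein genes, nuclear genes for the separate ribosome of mitochondria, 68 were higher in PGM than in Control (89.5%, against 50.9% of all genes), with a median of 0.12. In PGF 63 were higher (82.9%, against 44.2% of all genes), with a median of 0.09. These values are near those of the 292 other short genes of at least 200 RPKM, a limit not set for the mitochondrial list. Of those 82.2% were higher in PGM and 78.4% in PGF, with medians of 0.12 and 0.09. Of the 2978 other genes of the shortest class at any level, 67.4% were higher in PGM and 61.2% in PGF. Their medians were 0.09 and 0.05. In HM minus HF, 59 of the 76 were lower (77.6%, against 68.6% of all genes), with a median of -0.03. For 16 other genes whose mRNAs carry TOP tracts, 11 were lower in HM than in HF, or 68.8%, a share near the 68.6% of all genes. Their median was -0.09, beside -0.10 for the members and -0.05 for all genes. Eef1a1, an elongation factor of this list, had 3550.0 RPKM in PGM, 3432 RPKM in PGF, 3394 RPKM in HM, 3658 RPKM in HF and 3509 RPKM in Control, with HF highest and HM lowest. Gnb2l1, the small subunit scaffold also called Rack1, was at -0.17 in HM minus HF. Npm1 and Hnrnpa1 lay at 0.06 and 0.11 in the same comparison. Pabpc1, the poly(A) binding protein, had 53.4 RPKM in PGM, 53.2 RPKM in PGF, 59.9 RPKM in HM, 67.4 RPKM in HF and 83.4 RPKM in Control, and was highest in Control.

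Genes that build ribosomes or start translation had smaller median differences between HM and HF than the members. Of 30 ribosome biogenesis genes 20 were lower in HM, or 66.7%, near the 68.6% of all genes, with a median of -0.03. In PGM 26 of the 30 were higher than in PGF (86.7%, against 62.2% of all genes), with a median of 0.05 against 0.03 over all genes. Nop56, a core protein of the C/D box small nucleolar particles, was at -0.15 in HM minus HF, and Polr1b, a subunit of RNA polymerase I, at -0.14. Fbl, the methyltransferase of the same C/D box particles, was at 0.16. Of 22 initiation factors 19 were lower in HM (86.4%, against 68.6% of all genes), with a median of -0.04. Of 39 proteasome subunits 32 were lower in HM (82.1%), with a median of -0.07, where all genes had -0.05. Members of these lists named here were chosen after their values were seen.

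Markers of other cell types and adjoining tissues also differed between the groups. In HM against HF, 8 of 8 myelin markers were higher, and their summed level was 10765 RPKM in PGM, 13509 RPKM in PGF, 9216 RPKM in HM, 7125 RPKM in HF and 6721 RPKM in Control. For meninges 0 of 5 markers were higher in HM, and the sum was 90.8 RPKM in PGM, 128 RPKM in PGF, 113 RPKM in HM, 213 RPKM in HF and 184 RPKM in Control. For proliferating cells 0 of 5 were higher in HM, with sums from 7.92 RPKM in HM to 11.6 RPKM in Control. For microglia 0 of 5 were higher in HM, and the sum was 238 RPKM in PGM, 229 RPKM in PGF, 233 RPKM in HM, 245 RPKM in HF and 237 RPKM in Control. The meningeal, proliferation and microglial sums were lower in HM than in HF. So were the endothelial and erythroid sums given next, and 68.6% of all genes kept. For endothelium 0 of 5 were higher in HM, and the sum was 178 RPKM in PGM, 197 RPKM in PGF, 168 RPKM in HM, 201 RPKM in HF and 180.4 RPKM in Control. Erythroid markers, 3 of 4 found, summed to 1899 RPKM in PGM, 2557 RPKM in PGF, 1531 RPKM in HM, 3009 RPKM in HF and 3549 RPKM in Control, again lowest in HM. Thalamic markers, 5 of 5 higher in HM than in HF, summed to 276 RPKM in PGM, 268 RPKM in PGF, 134 RPKM in HM, 82.6 RPKM in HF and 75.7 RPKM in Control. Of 6 pituitary markers 6 were higher in HM than in HF, with Prl listed at 0 in HF, and the sum in PGF, 1656 RPKM, stood far above the other groups. For choroid plexus 3 of 5 were higher in HM than in HF, and the sum was 121 RPKM in PGM, 461 RPKM in PGF, 36.2 RPKM in HM, 31.3 RPKM in HF and 19.0 RPKM in Control. For striatum and cortex 1 of 5 was higher in HM, and the sum was 164 RPKM in PGM, 126 RPKM in PGF, 80.8 RPKM in HM, 81.3 RPKM in HF and 56.3 RPKM in Control. Markers of hypothalamic neurons, none of them at 0, summed to 664 RPKM in PGM, 496 RPKM in PGF, 1025 RPKM in HM, 981 RPKM in HF and 1206 RPKM in Control. Xist, expressed from the inactive X chromosome of females, had 14.2 RPKM in PGM, 11.6 RPKM in PGF, 26.4 RPKM in HM, 35.4 RPKM in HF and 44.0 RPKM in Control. Ddx3y, a Y-linked gene, had 30.4 RPKM in PGM, 31.97 RPKM in PGF, 16.8 RPKM in HM, 15.9 RPKM in HF and 2.52 RPKM in Control. The group means of both genes lay apart from those of Control. Xist was at -0.42 in HM minus HF and 0.29 in PGM minus PGF, and Ddx3y at 0.07 and -0.07. The labels give no sex. A difference in the mix of male and female samples cannot be told apart from a difference between groups in any of the comparisons. The part of these differences in the ribosomal protein values was not tested.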

How the data were processed

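The deposited table held, per the file headers, RPKM means that the authors made over the samples of each group, with a row for each of 49404 UCSC known gene transcripts. Per the submitters' processing notes, reads were checked with FastQC and aligned with Novoalign 2.08 to mm10. The sources used here do not name the counting program, its treatment of strand and shared reads, or the depth.

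Each gene name took the median of its transcripts, and names averaging at least 1 RPKM across groups entered the analysis. A difference is between 2 values of log2(RPKM + 0.5), which understates the change of low genes, and differences were counted from 0.32 on that scale and from 1.5-fold. With 1 mean per group, the planned limma fit for sample columns did not apply, and no test, SD or interval could be computed. RPKM is relative to the library's total, so what some genes take lowers the value of others.

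Positions and promoters came from RefSeq (GRCm38.p6), and transcript lengths from GENCODE M21 by symbol, for 87.2% of the genes kept and 82 of 82 members. Named were the 8 members with the highest means, the 5 with the largest difference in each direction of each comparison among members that reached 2 RPKM in a group compared, the paralogs and members of the functional lists. Some genes that this rule takes are not reported here. Lists were described by counts and medians. The members and lists were chosen with earlier results of these data known. Alternatives covered the pseudocount, the filter, the transcript taken, the scaling, the threshold and subtraction of medians. Calculations were tested on simulated data. Python 3.11.15, numpy 2.4.6, pandas 2.3.3 and matplotlib 3.10.9 were used.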

Additional observations from a re-analysis of the deposited data

How the results depend on the processing

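No paired analysis was possible because the table holds 1 mean per group, and for the same reason no replicate could be left out. Under alternatives that kept the 82 members and subtracted no median, 76 to 79 were lower in HM than in HF and 57 to 65 in HM than in Control. Of 76 canonical members 74 and 61 were lower in these comparisons, and of 84 unfiltered names 81 and 67. With a median subtracted, 66 to 74 of the 82 were lower in HM than in HF. Scaling to the upper quartile gave members' medians of 0.013 for PGM minus Control, -0.025 for HM minus Control and, reversed, -0.0086 for PGM minus PGF, where 35 members were then higher. Subtracting the median of all genes gave 0.048 for PGF, -0.010 for HM and 0.038 for HF minus Control, -0.0067 for PGM minus PGF (reversed) and -0.044 for HM minus HF. Subtracting the median of the length class reversed PGM minus Control (-0.034, 17 members higher), PGF minus Control (-0.024, 28 higher) and PGM minus PGF (-0.0057), and gave 0.0036 for HF minus Control (43 higher) and -0.044 for HM minus HF. Subtracting the median of other genes of at least 200 RPKM, an alternative chosen after seeing the data, reversed PGM minus Control (-0.036, 16 higher), PGF minus Control (-0.020, 28 higher) and PGM minus PGF (-0.0069, 37 higher), and gave 0.031 for HF minus Control and -0.062 for HM minus HF. The cause of these shifts was not tested beyond the subtraction itself. The single member past 0.32 on the log2 scale became 0 in PGM, PGF and HM against Control with a mean of at least 10 RPKM, with canonical members alone or at 1.5-fold, for PGF also with a pseudocount of 1 or the all-gene median subtracted. In HF against Control it became 0 at 1.5-fold, with upper quartile scaling and with each of the 3 subtractions. Depth is unknown, and differences of this size have no replicate error to be set against.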
